A study of Mus musculus with 23 samples.

Results

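Plasmablasts and activated B cells that carried no guide RNA were compared, both grown from mouse spleen B cells and labelled wild type for Irf8. Of the 23 RNA libraries of the series, 5 belonged to this comparison and were chosen by their labels alone: 2 of plasmablasts (m1 and m2) and 3 of activated B cells (m1, m2 and m3). The series also holds naive B cells, and cells of each stage that carried a guide RNA against Irf8. Both groups had been cultured with IL-2 (20 ng/ml), IL-5 (5 ng/ml) and lipopolysaccharide (20 mg/ml, the unit as labelled) for 72 hours. Plasmablasts, whose cell type label reads plasma cell, were sorted as CD138+ cells with full or intermediate B220. Activated cells were sorted as B220+ GL7+ CD138- cells. Both sorts took cells without CD11b, F4/80, Thy1.2 and Thy1.1, where Thy1.1 is the antigen that marked guide-carrying cells. PolyA RNA was sequenced after full-length cDNA synthesis with a kit that does not mark strand, and levels are the authors' RPKM, reads scaled to gene length and library size. Genotypes of the mice beyond Irf8, their age and how guides were delivered are not given in the labels, and an unguided plasmablast library m3 is not analysed here.

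A plasmablast is the dividing, antibody-secreting stage between an activated B cell and a plasma cell. The change of stage is known to run through a pair of opposed sets of transcription factors: PAX5, BACH2, SPIB, IRF8 and CIITA hold the B cell state, with antigen presentation and B cell receptor signalling, while IRF4, BLIMP-1 (encoded by Prdm1) and XBP1 drive secretion. XBP1 and ATF6 act in the unfolded protein response and induce chaperones, glycan-transferring enzymes and vesicle coats, which enlarge the endoplasmic reticulum for antibody export.

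The libraries differed in depth and in one check of their labels. Reads assigned to genes, estimated from the step between low RPKM values, were about 26900000 and 4300000 in plasmablasts m1 and m2, against 24600000, 16800000 and 5500000 in activated m1, m2 and m3. Activated library m3, sorted as Thy1.1-, held Thy1 at 25.7 RPKM, while plasmablasts m1 and m2 held 0.057 and 0.142 RPKM and activated m1 and m2 held 0.013 and 0.055 RPKM. Thy1 stood at 21.9 and 27.8 RPKM in the first 2 Irf8-guide activated libraries and at 0.093 RPKM in the third, so the libraries labelled unguided activated m3 and Irf8-guide activated m3 both go against their labels. Irf8 had 69.2, 68.1 and 92.4 RPKM in Irf8-guide activated m1, m2 and m3, against 108, 93.6 and 59.998 RPKM in unguided activated m1, m2 and m3. An exchange of labels between both m3 libraries was not tested, and if they were exchanged every value over 5 libraries includes 1 library of guide-carrying cells, so results are also given without it. Irf8, the gene the guides target, had 24.6 and 17.6 RPKM in plasmablasts, against the activated levels just given, lower by 1.98 ± 0.23 on the log2 scale (SE, adjusted p = 0.000561) and by 2.22 without activated m3. Of the 4244 genes called without activated m3, that library lay on the plasmablast side of both other activated libraries for 3574 (84.2%), at a median of 38.4% of the way to the plasmablast mean. Choosing genes by the distance of activated m1 and m2 from plasmablasts in itself favours that side for a left-out library. The share was not computed with m1 or m2 left out, so it cannot be read as a trait of m3. Nothing says that libraries came from separate animals or cultures, so a p-value here measures only how these samples spread. In such bulk RNA, fewer cells of a type and less RNA per cell cannot be told apart.

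More genes were lower than higher in plasmablasts. Differences are plasmablast minus activated on the log2(RPKM + 1) scale, tested with limma over 9675 genes at 1 RPKM or more in at least 2 libraries, and a gene is called at a Benjamini-Hochberg adjusted p under 0.05. Called genes numbered 3132 (32.4%), of which 1153 (11.9%) were higher and 1979 (20.5%) lower, and the median gene was at −0.12. Libraries of the groups did not overlap for 2081 genes on the higher side (21.5%) and 3595 on the lower (37.2%). With a difference of at least 1 on the log2 scale, 244 genes (2.52%) were higher and 513 (5.30%) lower. Without activated m3, 1437 genes (14.9% of 9634) were higher and 2807 (29.1%) lower, and these included 1147 of the 1153 and 1964 of the 1979 genes above. Scaling each library to its median ratio moved the median gene to 0.00 and the split to 1691 higher (17.5%) and 1647 lower (17.0%), so differences below are read against a median of −0.12. Called genes numbered 1913 without activated m2, 1632 without plasmablast m1 and 1024 without plasmablast m2. Of the 222 named genes that were called, 72 lost the call without plasmablast m1 and 98 without plasmablast m2, and a call given below without such a value is that of all 5 libraries. In both of these fits the remaining plasmablast library is assumed to vary like the activated ones.

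Sdc1 (Entrez 20969, GRCm38 chr12:8771396-8793716), which encodes CD138, had 27.5 and 34.1 RPKM in plasmablasts, against 0.473, 0.287 and 0.226 RPKM in activated cells. As CD138 was the sorted antigen this checks the gate and is no finding. Spib (Entrez 272382, chr7:44525995-44532087) encodes an ETS factor that holds the B cell state. It had 0.464 and 0.281 RPKM in plasmablasts, against 55.6, 51.0 and 28.6 RPKM in activated cells, a mean of 0.372 ± 0.129 against 45.1 ± 14.4 (SD, n = 2 and 3). Its difference was −5.02 ± 0.25 (SE, adjusted p = 1.32e-05). Ccr7 (Entrez 12775, chr11:99144199-99155077), the receptor that leads lymphocytes to T cell zones, had 1.11 and 0.819 RPKM in plasmablasts, against 80.9, 61.3 and 38.7 RPKM in activated cells. The mean was 0.964 ± 0.205 against 60.3 ± 21.1 RPKM, and the difference −4.91 ± 0.26 (adjusted p = 1.49e-05). For all 3 genes every plasmablast library lay apart from every activated library, also from activated m3. They are also among the genes of greatest difference, which were chosen for this property.

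Cd22, Gbp2, Fcer2a, Klf2 and Zbtb32 fell by more than 3 on the log2 scale. Cd22 (chr7:30865404-30880342), an inhibitory co-receptor of the B cell receptor, had 1.40 and 0.672 RPKM in plasmablasts, against 81.1, 61.5 and 27.0 RPKM in activated cells (−4.71 ± 0.38, adjusted p = 0.000103). Fcer2a, the low-affinity IgE receptor CD23, had 2.10 and 0.844 RPKM in plasmablasts, against 83.6, 61.2 and 20.3 RPKM in activated cells. Its difference was −4.33 and became −4.92 without activated m3, the lowest of its activated values. Gbp2, an interferon-inducible GTPase, had 1.47 and 0.490 RPKM in plasmablasts, against 52.5, 45.3 and 35.8 RPKM in activated cells (−4.55). Klf2, a factor of resting and recirculating lymphocytes, had 4.07 and 1.00 RPKM in plasmablasts, against 56.6, 51.8 and 29.0 RPKM in activated cells (−3.82). Zbtb32, a zinc finger repressor of B cells, was lower by 3.74 and the chemokine gene Ccl22 by 3.50. For each of these genes activated m3 stood below activated m1, and above both plasmablast libraries. Their lack of overlap between the groups is a property they were chosen for.

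After Sdc1, Tnfrsf17, Gpr160, Rgcc and Cd28 had the greatest rises. Tnfrsf17 (Entrez 21935, chr16:11313232-11320074) encodes BCMA, the APRIL receptor of plasma cells, and had 18.9 and 12.8 RPKM in plasmablasts, against 0.249, 0.220 and 0.447 RPKM in activated cells (3.67 ± 0.20, adjusted p = 1.82e-05). Cd28 (Entrez 12487, chr1:60746388-60773359), known from T cells and from long-lived plasma cells, had 6.17 and 6.71 RPKM in plasmablasts, against 0.281, 0.299 and 0.402 RPKM in activated cells (2.49, adjusted p = 5.34e-05). Rgcc (Entrez 66214, chr14:79288750-79301635), a regulator of the cell cycle, had 169 RPKM in both plasmablast libraries, against 24.0, 22.2 and 40.5 RPKM in activated cells (2.56 ± 0.22, adjusted p = 0.000147). These genes did not overlap between the groups, a property they were chosen for.

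Slpi, a secreted protease inhibitor, had 703 and 629 RPKM in plasmablasts, against 116, 72.8 and 212 RPKM in activated cells (2.44, adjusted p = 0.00141). Fkbp11, a prolyl isomerase of the endoplasmic reticulum, had 132 and 179 RPKM in plasmablasts, against 16.2, 27.4 and 46.4 RPKM in activated cells (2.44, adjusted p = 0.00118). Gpr160, an orphan receptor, had 9.59 and 10.5 RPKM in plasmablasts, against 0.491, 0.887 and 1.16 RPKM in activated cells (2.6, adjusted p = 8.26e-05). In plasmablasts Slpi and Fkbp11 were thus abundant transcripts, while Gpr160 was not. Tg, the thyroglobulin gene, had 14.2 and 15.3 RPKM in plasmablasts, against 1.87, 2.63 and 3.78 RPKM in activated cells (2.10). Ly6c2, whose reads may be shared with its near copy Ly6c1, had 32.4 and 57.1 RPKM in plasmablasts, against 3.33, 8.14 and 16.8 RPKM in activated cells (2.31, adjusted p = 0.00655, and 0.117 without plasmablast m2).

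**Figure D1:**
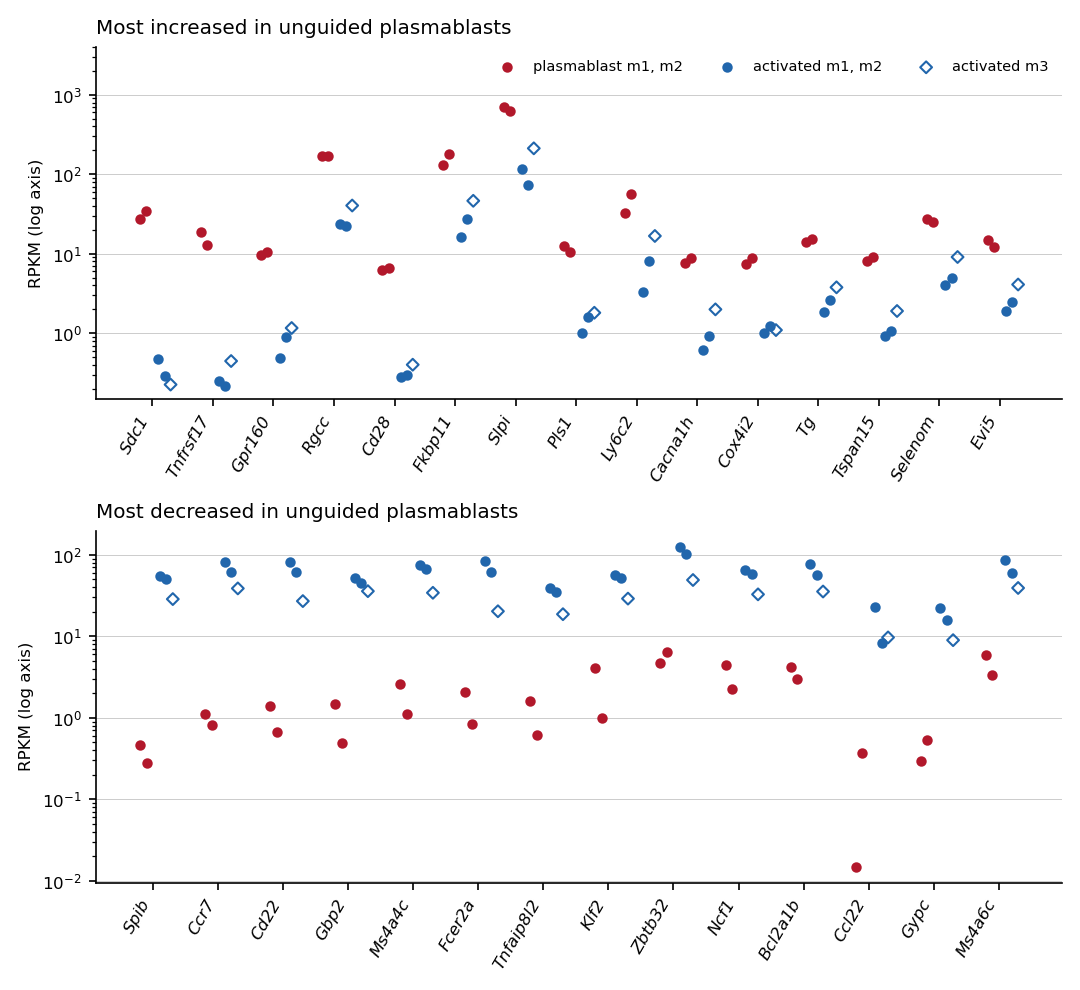
RPKM on a log axis in each of the 5 libraries for 29 of the called genes with the greatest differences, 15 higher and 14 lower in plasmablasts, with plasmablasts and activated cells as separate symbols and activated m3 marked apart. For every gene the 2 plasmablast libraries lie on one side of the 3 activated libraries, a property the genes were chosen for, and Sdc1 is the sorted antigen.

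Most B cell transcription factors fell and most plasma cell factors rose. Of 20 B cell factors, all tested, 15 were lower and 0 higher, with a median of −0.61, and 15 were lower without activated m3. The count was 8 without plasmablast m2. Spib led them. Ciita (Entrez 12265, chr16:10480014-10531064), the activator of MHC class II genes, had 0.447 and 0.327 RPKM in plasmablasts, against 16.8, 15.3 and 7.41 RPKM in activated cells (−3.28 ± 0.29, adjusted p = 0.000151). Id3, an inhibitor of E proteins, had 3.23 and 1.38 RPKM in plasmablasts, against 39.2, 35.9 and 19.6 RPKM in activated cells (−3.30). Bach2, a repressor of Prdm1, had 1.58 and 0.603 RPKM in plasmablasts, against 7.18, 6.51 and 4.005 RPKM in activated cells (−1.73, adjusted p = 0.00174). These values did not overlap between the groups.

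Pax5, the factor that commits cells to the B lineage, was low in both groups, with 1.03 and 0.400 RPKM in plasmablasts, against 7.90, 5.13 and 2.91 RPKM in activated cells (−1.83, adjusted p = 0.00301, and 0.0672 without plasmablast m2). Ebf1, a second lineage factor, had 4.88 and 3.23 RPKM in plasmablasts, against 17.8, 13.6 and 10.4 RPKM in activated cells (−1.55). Bcl11a was lower by 2.38. Spi1, which encodes the ETS factor PU.1, kept more of its level, at 26.9 and 26.5 RPKM in plasmablasts, against 41.2, 38.2 and 36.0 RPKM in activated cells (−0.51, adjusted p = 0.00877). Ets1 (−0.63), Ikzf1 (−0.59), Foxo1 (−0.53), Ikzf3 (−0.42) and Tcf3 (−0.40) were also called lower, and Bcl6, Tcf4, Runx1, Mef2c and Pou2af1 were not called.

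Of 15 plasma cell factors, 14 were tested, 9 were higher and 3 lower, with a median of 0.46, and both counts were the same without activated m3. The higher count was 3 without activated m2, 3 without plasmablast m1 and 2 without plasmablast m2, and 1 of the 3 stayed lower without plasmablast m2. Cited2, a transcriptional co-activator, had 87.0 and 79.2 RPKM in plasmablasts, against 43.8, 37.1 and 52.5 RPKM in activated cells (0.90, adjusted p = 0.00266). Creb3l2, a transcription factor of the secretory pathway, had 28.9 and 31.3 RPKM in plasmablasts, against 9.18, 10.95 and 17.6 RPKM in activated cells (1.24, adjusted p = 0.00341, and 0.0663 without plasmablast m2). Ell2, the elongation factor that favours secretory immunoglobulin transcripts, had 62.4 and 67.5 RPKM in plasmablasts, against 23.9, 28.9 and 40.6 RPKM in activated cells (1.07, adjusted p = 0.00351, and 0.0664 without plasmablast m2). No activated library reached the plasmablast range of these 3 genes.

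The central plasma cell factors differed less. Xbp1 (Entrez 22433, chr11:5520641-5525993) had 609 and 970 RPKM in plasmablasts, against 260, 324 and 565 RPKM in activated cells, or 790 ± 255 against 383 ± 161 RPKM (SD, n = 2 and 3). Its difference of 1.08 ± 0.33 had an adjusted p of 0.0321, and that p was 0.00126 without activated m3, 0.0767 without activated m2, 0.0659 without plasmablast m1 and 0.274 without plasmablast m2. Irf4 had 122 and 129 RPKM in plasmablasts, against 67.6, 88.8 and 103 RPKM in activated cells (0.55, adjusted p = 0.0355, and 0.0606 to 0.2 without activated m1, activated m2, plasmablast m1 or plasmablast m2). The activated library nearest to the plasmablasts was m3 for both genes. Under median-ratio scaling Irf4 was still called and Xbp1 was not. Prdm1 had 69.6 and 76.6 RPKM in plasmablasts, against 56.7, 71.4 and 94.6 RPKM in activated cells, where activated m3 was above both plasmablast libraries (0.01, adjusted p = 0.981, and 0.20 without activated m3). Zbtb38 (0.69), Arid3a (0.47), Atf4 (0.45) and Atf6 (0.44) were called higher. Aff3 (−1.99), Pou2f2 (−0.91) and Tfdp1 (−0.68) were called lower although the list holds them as plasma cell factors. Pou2f2 encodes OCT2, an octamer-binding factor of B cells, and TFDP1 is a partner of E2F factors.

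**Figure D2:**
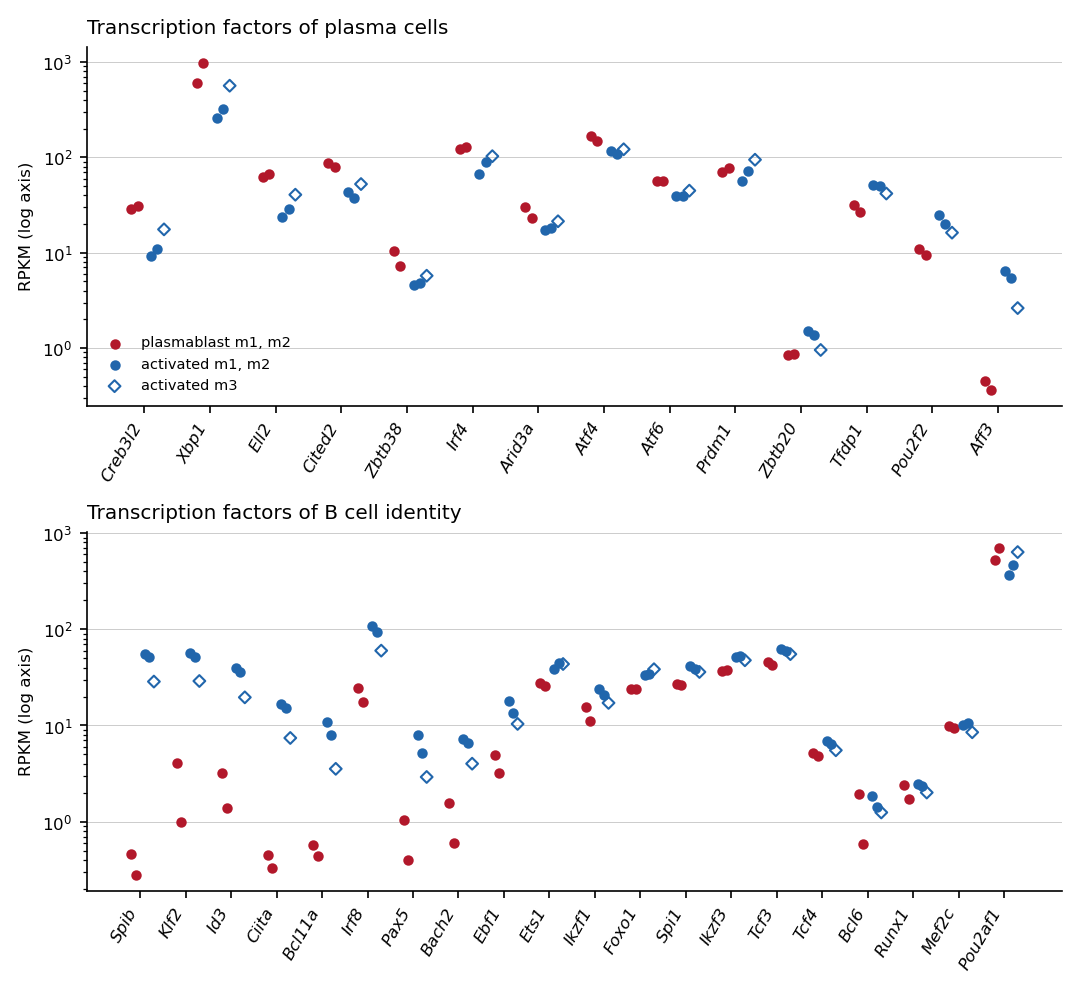
RPKM on a log axis in each of the 5 libraries for the B cell and plasma cell transcription factors that were tested, with plasmablasts and activated cells as separate symbols and activated m3 marked apart. Spib and Ciita lie below 1 RPKM in plasmablasts, while Prdm1, at 69.6 and 76.6 RPKM in plasmablasts, lies within the range of the activated libraries.

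Transcripts of surface proteins divided likewise. Of 17 B cell surface genes, all tested, 11 were lower and 1 higher, with a median of −0.61, and 6 were lower without plasmablast m2. Cd72 (−2.51) and Siglecg (−2.41), both inhibitory receptors, and the tetraspanin gene Cd37 (−1.88) fell most after Cd22 and Fcer2a. Ms4a1 (CD20, −0.98) and Cd79b (−0.61), a signalling chain of the B cell receptor, both named after their values were seen, were also called lower. Cd79a, the other signalling chain of the B cell receptor, had 809.6 and 1145 RPKM in plasmablasts, against 880.0, 1109 and 1690 RPKM in activated cells, with overlapping values (−0.29, adjusted p = 0.508). Ptprc, whose B220 form was gated on, and Cd24a were at 0.00 and −0.03. Cd1d1 was called higher (0.67, adjusted p = 0.0589 without plasmablast m2).

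Of 20 plasma cell surface and secreted genes, all tested, 16 were higher and 0 lower, with a median of 1.23, among them Sdc1. The count was 17 without activated m3 and 6 without either plasmablast library. Sdc1, Tnfrsf17 and Cd28 leave the test when a plasmablast library is left out, as they then reach 1 RPKM in a single library. Eaf2, a partner of ELL elongation factors, had 88.2 and 97.8 RPKM in plasmablasts, against 22.6, 26.4 and 39.6 RPKM in activated cells (1.66). Jchain, which joins IgM and IgA into polymers, had 1236 and 2498 RPKM in plasmablasts, against 323, 536 and 1175 RPKM in activated cells (1.58 ± 0.50, adjusted p = 0.0369). Without activated m2, plasmablast m1 or plasmablast m2 the adjusted p of Jchain was 0.0635, 0.0737 and 0.310. Derl3, a channel component for misfolded proteins, had 178 and 197 RPKM in plasmablasts, against 60.5, 82.2 and 127 RPKM in activated cells (1.11, adjusted p = 0.0102, with 0.0727 and 0.12 without plasmablast m1 and m2). Eaf2 and Jchain are named after their values were seen. Mzb1, a chaperone of IgM assembly, had 812 and 1495 RPKM in plasmablasts, against 395, 533 and 927 RPKM in activated cells, where activated m3 was above plasmablast m1 (0.92, adjusted p = 0.0892). Without activated m3 it was called higher (1.26, adjusted p = 0.00714). Tnfrsf13b, the receptor TACI, had 159 and 185 RPKM in plasmablasts, against 160.3, 161 and 146 RPKM in activated cells (0.14, not called). Of 12 immunoglobulin heavy and light chain genes listed, 0 were in the table, and they are not analysed here.

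Most MHC class II genes fell, with the greatest differences in Ciita, H2-DMb2 and H2-DMb1. Of 16 genes of this list, 15 were tested, 10 were lower and 0 higher, with a median of −1.13, and the lower count stayed between 8 and 11 with any library left out. H2-DMb2, a chain of the peptide exchanger H2-DM, had 13.5 and 11.2 RPKM in plasmablasts, against 127, 122 and 87.6 RPKM in activated cells (−3.07 ± 0.17, adjusted p = 1.97e-05). H2-DMb1 was lower by 2.91, and reads of these near copies may be shared. H2-DMa was lower by 2.07. H2-Oa, a chain of the inhibitor of H2-DM, had 0.348 RPKM in plasmablast m1 and was listed at 0 in plasmablast m2, against 9.53, 8.01 and 3.57 RPKM in activated cells (−2.70), and H2-Ob was lower by 1.13.

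The classical chains had smaller differences than those of H2-DM. H2-Aa had 77.2 and 81.9 RPKM in plasmablasts, against 199, 218 and 192 RPKM in activated cells (−1.34, adjusted p = 0.000217). H2-Eb1 had 105 and 107 RPKM in plasmablasts, against 258, 272 and 249 RPKM in activated cells (−1.29, adjusted p = 0.000259). H2-Ab1 had 153 and 189.6 RPKM in plasmablasts, against 277, 317 and 359 RPKM in activated cells (−0.89, adjusted p = 0.00483, and 0.0602 without plasmablast m1). No library of these 3 genes overlapped between the groups. Cd74, the invariant chain, had 770.5 and 1437 RPKM in plasmablasts, against 966, 1138 and 1591 RPKM in activated cells, and its values overlapped (−0.19, adjusted p = 0.686). Of the factors beside Ciita, Rfx5 was called lower (−0.76, with adjusted p between 0.0626 and 0.189 without activated m1, activated m2, plasmablast m1 or plasmablast m2), and Rfxap and Rfxank were not called. Ifi30 (−0.48) and Ctss, a lysosomal reductase and a protease of antigen processing, were not called, although Ifi30 was called lower without activated m3 (−0.74, adjusted p = 0.000492), and Marchf1 did not reach the filter. Of 16 genes of MHC class I presentation, 0 were called in either direction, with a median of 0.04. Without activated m3, 4 of them were higher and 2 lower.

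**Figure D3:**
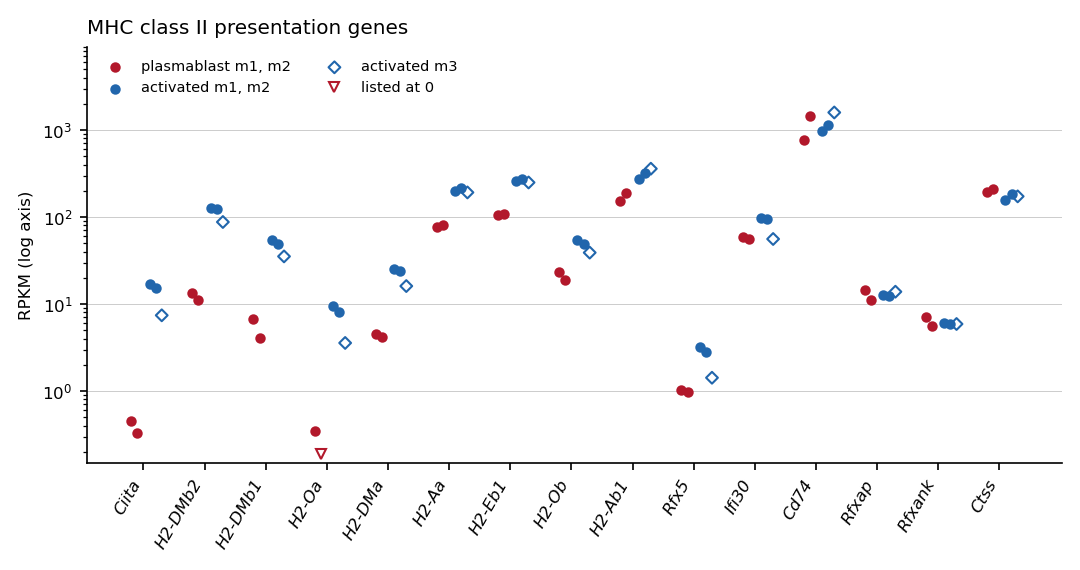
RPKM on a log axis in each of the 5 libraries for the MHC class II genes and Ciita, with plasmablasts and activated cells as separate symbols, activated m3 marked apart and a triangle for the library listed at 0. H2-DMb2 and Ciita stand far apart between the groups, H2-Aa and H2-Eb1 less, and Cd74 overlaps.

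Most tested members of all 6 secretory lists rose. Of 20 genes of the IRE1 and ATF6 arms of the unfolded protein response, 15 were higher and 0 lower, with a median of 0.93. Higher and lower members numbered 21 and 0 of 24 for translocation into the endoplasmic reticulum (median 0.83), 19 and 0 of 24 for N-glycosylation (0.80), 15 and 0 of 17 for disulfide formation and folding (0.88), 12 and 0 of 20 for degradation of misfolded proteins (0.61), and 24 and 0 of 33 for traffic between the endoplasmic reticulum and the Golgi (0.62). Without activated m3 the higher counts were 19, 22, 19, 16, 17 and 28 in the same order, and under median-ratio scaling 10, 21, 19, 12, 12 and 26, with 0 lower each time. Without plasmablast m1 they were 3, 13, 12, 9, 8 and 11, and without plasmablast m2 they were 3, 8, 7, 5, 3 and 8. Without activated m2 the first of these counts was 9.

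These genes were already high in activated cells, so a difference near 1 on the log2 scale was a large one in RPKM. Edem1, which takes misfolded glycoproteins to degradation, had 218 and 312 RPKM in plasmablasts, against 72.3, 94.5 and 162 RPKM in activated cells (1.33, adjusted p = 0.00927). Creld2, a secreted stress protein, had 721 and 922 RPKM in plasmablasts, against 230.2, 319 and 477 RPKM in activated cells (1.31, adjusted p = 0.00842). Hsp90b1, the chaperone GRP94, had 864 and 1387 RPKM in plasmablasts, against 350.0, 480 and 755 RPKM in activated cells (1.12, adjusted p = 0.030). No activated library reached the plasmablast range of these 3 genes, and without plasmablast m2 their adjusted p was 0.136, 0.11 and 0.255. The calls of Creld2 and Hsp90b1 were also lost without plasmablast m1, at 0.0504 and 0.0617, and that of Hsp90b1 without activated m1 and m2, at 0.0571 and 0.0799. Hspa5, the chaperone BiP, had 426 and 648 RPKM in plasmablasts, against 245, 334 and 486 RPKM in activated cells, where activated m3 was above plasmablast m1, and was not called (0.62, adjusted p = 0.132). Without activated m3 it was called higher (0.87, adjusted p = 0.0126).

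Among the translocation genes, Srprb, a receptor subunit for the signal recognition particle, had 93.3 and 97.6 RPKM in plasmablasts, against 32.5, 38.4 and 48.3 RPKM in activated cells (1.26, adjusted p = 0.000742). Spcs1 of the signal peptidase (1.25), Ssr2 (1.19) and Ssr4 (1.11) of the translocon-associated complex, and Tram2 (1.09) followed. Of the oligosaccharyltransferase and its donors, Krtcap2 (1.27), Ddost (1.14), Alg5 (1.03), Dpm3 (1.02) and Rpn1 (1.01) were called. Ddost had 739 and 962 RPKM in plasmablasts, against 291, 361 and 531 RPKM in activated cells, without overlap. Txndc5, a protein disulfide isomerase, had 550.3 and 867 RPKM in plasmablasts, against 178, 237 and 312 RPKM in activated cells (1.54, adjusted p = 0.00305, and 0.0599 without plasmablast m2). Fkbp2 (1.45), Txndc11 (1.33) and Prdx4 (1.22), which fold or oxidise proteins in the endoplasmic reticulum, rose with it. Among degradation genes Edem2 (1.36), Os9 (1.06) and Erlec1 (1.00), all of glycoprotein disposal, led. Kdelr3, a receptor that returns escaped chaperones, had 10.5 and 10.2 RPKM in plasmablasts, against 1.24, 2.12 and 3.23 RPKM in activated cells (1.87, adjusted p = 0.000862). Kdelr1 (1.22) and Kdelr2 (1.04), its paralogs, Sec24a of the vesicle coat (1.31) and the cargo receptor gene Tmed10 (1.24) were higher too.

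**Figure D4:**
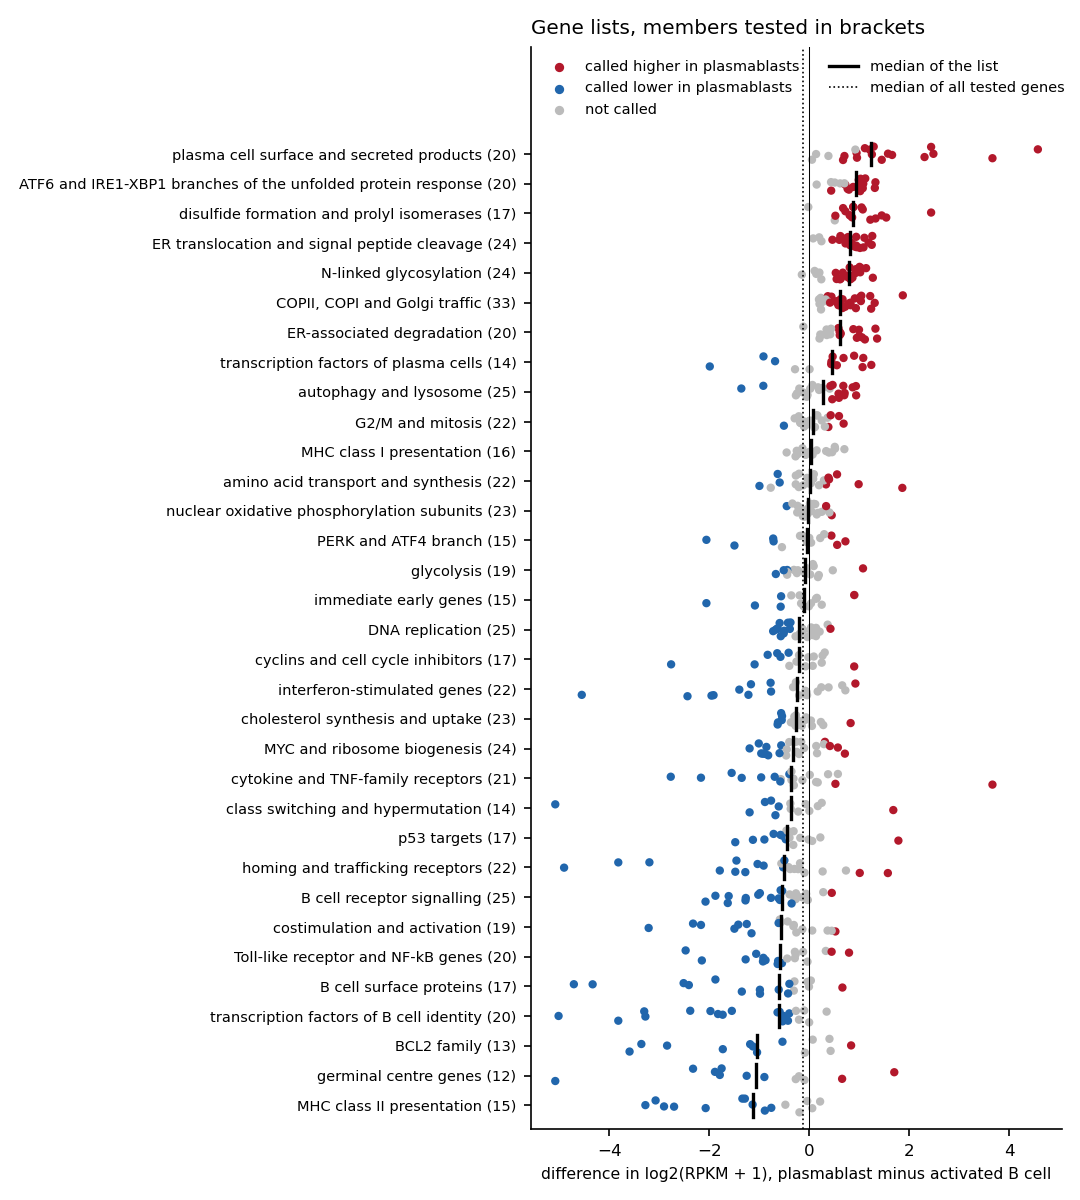
Difference of each tested list member in log2(RPKM + 1), plasmablast minus activated, on the horizontal axis, with lists down the page, called members coloured by direction, a bar at each list's median and a dotted line at the median of all tested genes. The 6 secretory lists have 0 members called lower, while B cell factors and MHC class II genes have 0 called higher.

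Calls in the PERK arm of the response were not far from the shares over all genes, 11.9% higher and 20.5% lower. Of 15 tested genes of 17 listed, 3 were higher and 4 lower, with a median of −0.04. Both counts depended on the libraries, with 1 higher without activated m1, activated m2 or plasmablast m1, 0 higher without plasmablast m2, and 2 and 1 lower without plasmablast m1 and m2. Chac1 (0.73), Cebpb (0.56) and Atf4 (0.45) were higher, and Atf3 (−2.06), Trib3 (−1.50), Ddit4 (−0.72) and Sesn2 (−0.71) lower. Eif2ak3, which encodes PERK, and Asns, an ATF4 target, were at −0.13 and −0.04 and not called.

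ATF6, with NF-Y, is known to act through the endoplasmic reticulum stress element, CCAAT and CCACG with 9 bases of any kind between them. It was searched on both strands in the 250 bases before the start of 7846 tested genes that had a RefSeq promoter of build GRCm38.p6. It was found in 15 promoters (0.191%), in 7 of the 17 unfolded protein response genes with a promoter (41.2%), in 8 of the 920 genes called higher (0.870%) and in 2 of the 1592 called lower (0.126%). In the 100 bases before the start it was found in 5 promoters (0.0637%), 2 of the 17, 2 of the 920 and 0 of the 1592. The 17 genes were listed as members of the IRE1 and ATF6 arms, so their share follows in part from how the list was made. Stretches around the element are shown for 6 genes, since they set the shared letters beside unequal differences. Each is 5′ to 3′ on the strand of the gene, with the element in capitals, and in Creld2 and Derl3 it lies on the opposite strand.
Creld2: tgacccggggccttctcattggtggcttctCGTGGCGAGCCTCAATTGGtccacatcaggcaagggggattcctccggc
Derl3: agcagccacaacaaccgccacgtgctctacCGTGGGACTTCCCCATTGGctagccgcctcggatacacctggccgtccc
Dnajc3: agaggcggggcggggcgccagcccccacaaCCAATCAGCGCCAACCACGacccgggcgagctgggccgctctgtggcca
Syvn1: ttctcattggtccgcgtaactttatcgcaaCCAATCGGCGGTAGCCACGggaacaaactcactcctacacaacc
Hspa5: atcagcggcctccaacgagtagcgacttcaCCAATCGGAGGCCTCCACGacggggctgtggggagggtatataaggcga
Canx: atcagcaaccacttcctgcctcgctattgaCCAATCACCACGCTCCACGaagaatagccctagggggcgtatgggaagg

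These stretches lie at chr15:88819490-88819568 on the plus strand for Creld2, chr10:75893212-75893290 (plus) for Derl3, chr14:118937797-118937875 (plus) for Dnajc3, chr19:6046502-6046575 (plus) for Syvn1, chr2:34771995-34772073 (plus) for Hspa5 and chr11:50325770-50325848 (minus) for Canx. From the element to the start there were 25 bases in Syvn1, 46 in Hspa5, 86 in Dnajc3, 107 in Creld2, 126 in Canx and 137 in Derl3. Dnajc3, a co-chaperone of BiP, had 162 and 180.3 RPKM in plasmablasts, against 67.3, 81.9 and 115 RPKM in activated cells (0.98, adjusted p = 0.00669). Syvn1, the ubiquitin ligase of this degradation pathway, had 94.0 and 103 RPKM in plasmablasts, against 58.6, 60.7 and 78.3 RPKM in activated cells (0.59, adjusted p = 0.0152). Canx, the lectin chaperone calnexin, had 127 and 126 RPKM in plasmablasts, against 104, 122 and 117 RPKM in activated cells, and was not called (0.15, adjusted p = 0.396). Genes with the element thus ran between 1.31 for Creld2 and 0.15 for Canx among those shown, and the calls of Dnajc3 and Syvn1 were lost without either plasmablast library, at 0.0532 and 0.0659 without m1 and 0.0925 and 0.132 without m2.

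Of the 15 genes with the element, 8 were called higher, namely Creld2, Hsp90b1, Derl3, Dnajc3, Pdia6, Ero1lb, Syvn1 and Alg12. Hnrnpa3 (−0.47) and Adcy3 (−1.06), whose stretches are not shown, were called lower. Calr, Hspa5, Canx, Gm6566 and Pan2 were not called. Without activated m3, 10 were higher, with Hspa5 and Calr (0.96, adjusted p = 0.00488) added, and 2 lower. TGACGTG, the core of the unfolded protein response element to which XBP1 is known to bind, was in 240 promoters (3.06%), with 52 of the 920 called higher (5.65%) and 35 of the 1592 called lower (2.20%). CCACG alone, which the longer element contains, was in 3762 promoters (47.9%), with 486 of the 920 (52.8%) and 744 of the 1592 (46.7%). GGAA and GAAA with 2 bases of any kind between them, a composite element for ETS and IRF factors such as PU.1 or SPIB with IRF4 or IRF8, was in 186 promoters (2.37%), with 20 of the 920 (2.17%) and 44 of the 1592 (2.76%). A match of letters is a description of the promoter and not a bound site.

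Many genes through which an activated B cell receives signals were lower. Over all tested genes, 20.5% were lower and 11.9% higher. Of 25 genes of B cell receptor signalling, 14 were lower and 1 higher, with a median of −0.54, and 8 were lower without plasmablast m2, while the higher count ran between 0 and 2. Prkcb, the kinase that links the receptor to NF-kB, had 21.3 and 17.2 RPKM in plasmablasts, against 106, 94.2 and 59.0 RPKM in activated cells (−2.08, adjusted p = 0.000351). Bank1 (−1.88) and Pik3ap1 (−1.63), both adaptors, and the phosphatase gene Ptpn6 (−1.61) fell with it. Cd81, a tetraspanin, was higher by 0.45, and Plcg2 and Blnk were not called, although Blnk was called higher without activated m3 (0.40, adjusted p = 0.0235).

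Of 20 tested genes of Toll-like receptor and NF-kB signalling, 11 were lower and 2 higher, with a median of −0.58, and 7 and 5 were lower without plasmablast m1 and m2. The higher count was 1 without activated m2 or either plasmablast library. Ly86, which encodes MD-1, a partner of RP105, had 26.0 and 22.4 RPKM in plasmablasts, against 141, 134 and 71.2 RPKM in activated cells (−2.15, adjusted p = 0.000579). Tlr1 (−2.47), Nfkb1 (−1.27, adjusted p = 0.0716 without plasmablast m2), Nfkb2 (−1.06) and Rel (−0.93) were lower. Ly96, which encodes MD-2, the lipopolysaccharide-binding partner of TLR4, was higher by 0.80, and Irak1 by 0.45. The shares over all tested genes were 20.5% lower and 11.9% higher.

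Of 19 tested costimulatory genes, 8 were lower and 1 higher (median −0.57). Cd83, an activation marker that holds MHC class II at the surface, had 9.75 and 7.05 RPKM in plasmablasts, against 117, 98.4 and 53.7 RPKM in activated cells (−3.21, adjusted p = 0.000151). Cd86 (−2.32), Cd40 (−2.17), Cd80 (−1.50) and Cd69 (−1.42) fell with it, and the 1 higher call was lost without any library other than activated m3, without which 3 were higher. Of 21 cytokine receptor genes, 8 were lower and 2 higher (median −0.35), and 4 were lower without plasmablast m2. The higher count was 1 without activated m1 or m2 and 0 without either plasmablast library. Il21r, the receptor for a helper cytokine, had 38.6 and 37.5 RPKM in plasmablasts, against 127, 123 and 93.4 RPKM in activated cells (−1.55, adjusted p = 0.000219). Il10ra (−2.77), Tgfbr2 (−1.35) and Il4ra (−0.96) were lower, and Csf2rb, the chain shared by the IL-3, IL-5 and GM-CSF receptors, was higher by 0.53 beside Tnfrsf17. Both lists are read against 20.5% lower and 11.9% higher over all tested genes, and the 2 higher of 21 cytokine receptor genes did not exceed that share.

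Receptors of migration were more often lower than higher. Of 22 genes, 11 were lower and 2 higher, with a median of −0.51, and 4 were higher without activated m3. Over all tested genes, 20.5% were lower and 11.9% higher. Cxcr5, the receptor of follicles, had 11.5 and 11.7 RPKM in plasmablasts, against 35.1, 35.9 and 31.7 RPKM in activated cells (−1.48). Gpr183, the oxysterol receptor EBI2 (−1.79), S1pr3 (−1.46), the integrin genes Itgb7 (−1.28) and Itgb1 (−1.03), Gpr132 (−0.91), Ccr6 (−0.52) and P2ry10 (−0.50) were lower beside Ccr7.

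On the higher side, Itga4, the α4 integrin chain, had 15.2 and 17.7 RPKM in plasmablasts, against 3.97, 5.34 and 5.37 RPKM in activated cells (1.57, adjusted p = 0.000295). Cxcr4, the receptor for CXCL12 of bone marrow stroma, had 15.96 and 10.3 RPKM in plasmablasts, against 5.43, 5.53 and 6.73 RPKM in activated cells (1.01, adjusted p = 0.00426). Neither overlapped between the groups, whereas Itgb7 and Itgb1, the chains that pair with α4, were lower. Ccr10, a receptor of mucosal homing, had 4.09 and 3.75 RPKM in plasmablasts, against 1.48, 1.21 and 3.69 RPKM in activated cells and was not called (0.74, adjusted p = 0.0829), but without activated m3 it was called higher (1.07, adjusted p = 0.000835). S1pr1, the receptor for exit into blood, was at −0.41 and not called.

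Genes of class switching and of the germinal centre fell in part. Over all tested genes, 20.5% were lower and 11.9% higher. Of 14 class switch genes, 6 were lower and 1 higher, with a median of −0.37, and 3 were lower without either plasmablast library. Apex1 (−1.19), Xrcc6 (−0.76) and Msh6 (−0.68), all of DNA repair, were among the lower genes. Hmces, a protein that shields abasic sites, had 25.03 and 25.7 RPKM in plasmablasts, against 4.96, 6.17 and 11.9 RPKM in activated cells (1.68, adjusted p = 0.00229, and 0.0529 without plasmablast m2). Of 12 tested germinal centre genes of 14 listed, 7 were lower and 2 higher, with a median of −1.07. The higher count was 1 without activated m2 and 0 without either plasmablast library. Rgs13 (−1.89), Lmo2 (−1.75, adjusted p = 0.0741 without plasmablast m2) and Fas (−0.90) were lower. Nuggc, a germinal centre GTPase, had 41.9 and 36.7 RPKM in plasmablasts, against 6.95, 10.3 and 20.0 RPKM in activated cells (1.70, adjusted p = 0.00435, with 0.0651 and 0.0649 without plasmablast m1 and m2). Basp1 was higher by 0.66, and Bcl6, the germinal centre repressor, was not called (−0.20). GL7, part of the activated gate, is a glycan and has no transcript here.

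Growth and replication genes had medians nearer to that of all genes. By calls, 20.5% of all tested genes were lower and 11.9% higher. Of 24 genes of MYC and ribosome production, 9 were lower and 4 higher (median −0.33), with 5 lower and 0 higher without either plasmablast library and 1 higher without activated m2. Npm1, a nucleolar chaperone, had 51.4 and 50.4 RPKM in plasmablasts, against 130, 137 and 91.6 RPKM in activated cells (−1.19, adjusted p = 0.00139). Rrp9 (−1.01), Polr1b (−0.96), Ncl (−0.93) and Fbl (−0.89), all of ribosome assembly, were lower. Higher calls were the MYC antagonists Mxi1 (0.71) and Mxd4 (0.57), and also Gnl3 (0.41, adjusted p = 0.0332) and Odc1 (0.32, adjusted p = 0.0497). Of 25 replication genes, 11 were lower and 1 higher (median −0.19), with 6 lower without activated m2 and 3 without plasmablast m2, and the higher count between 0 and 2. Mcm3, a helicase subunit, had 56.8 and 57.5 RPKM in plasmablasts, against 85.6, 93.5 and 88.5 RPKM in activated cells (−0.63), and Pold1 (−0.72), Mcm4 (−0.67) and Rrm1 (−0.64) were lower by similar amounts.

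Few mitosis genes were called. Over all tested genes, 11.9% were higher and 20.5% lower. Of 22 G2 and mitosis genes, 4 were higher and 1 lower (median 0.07), with 2 higher without activated m1 or m2 and 1 without plasmablast m1, and 0 lower without activated m2 or plasmablast m2. Foxm1, their transcription factor, had 27.6 and 22.0 RPKM in plasmablasts, against 14.98, 14.5 and 15.3 RPKM in activated cells (0.69, adjusted p = 0.00432). Mki67, the proliferation antigen, had 75.4 and 57.4 RPKM in plasmablasts, against 46.8, 41.2 and 41.7 RPKM in activated cells (0.60, adjusted p = 0.0114, and 0.0927 without plasmablast m1). Of 17 tested cyclins, their kinases and cell cycle inhibitors, 6 were lower and 1 higher (median −0.20), with 3 lower without activated m1 or m2 and 2 without either plasmablast library, and 3 higher without activated m3. Cdkn2c, an inhibitor of CDK4 and CDK6 known to act in plasma cell differentiation, had 34.7 and 30.1 RPKM in plasmablasts, against 12.7, 16.3 and 22.9 RPKM in activated cells (0.90, with adjusted p = 0.102 and 0.0781 without plasmablast m1 and m2). Btg1 (−2.76), an antiproliferative gene, and Cdkn2a (−1.09), an inhibitor of the cycle, were lower, as were Ccnd3 (−0.83) and Cdk6 (−0.64), which drive it. The median of every list in these paragraphs is read against −0.12 for all genes, and the medians of replication and mitosis genes lay close to it. By calls, 11 of 25 replication genes were lower, a larger share than the 20.5% of all genes, though that count depended on the libraries used.

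The BCL2 family changed across both its survival genes and its promoters of apoptosis. Among all tested genes, 20.5% were lower and 11.9% higher. Of 13 tested genes of 18 listed, 8 were lower and 1 higher, with a median of −1.04, and 5 were lower without plasmablast m2, while 3 were higher without activated m3. Bcl2a1b (−3.60), Bcl2a1d (−3.36) and Bcl2a1a (−2.84), near-identical copies of an NF-kB-induced inhibitor of apoptosis whose reads may be shared, fell most. Bcl2, an inhibitor of apoptosis, had 2.11 and 3.53 RPKM in plasmablasts, against 16.1, 13.2 and 6.97 RPKM in activated cells (−1.73, adjusted p = 0.0543 without plasmablast m1). Bid (−1.18), Bbc3 (−1.13), Pmaip1 (−1.04) and Bax (−0.53), all promoters of apoptosis, were lower as well. Bcl2l11, which encodes the pro-apoptotic protein BIM, had 16.3 and 19.6 RPKM in plasmablasts, against 6.96, 8.49 and 14.5 RPKM in activated cells (0.84, with adjusted p = 0.102 and 0.221 without plasmablast m1 and m2). Mcl1, on which plasma cells are known to depend, had 272 and 301 RPKM in plasmablasts, against 204, 217 and 227 RPKM in activated cells and was not called (0.41, adjusted p = 0.0561), but without activated m3 it was called higher (0.44, adjusted p = 0.0247).

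Of 17 tested p53 target genes, 7 were lower and 1 higher, with a median of −0.44, beside 20.5% and 11.9% of all tested genes. The lower count was 11 without activated m3, 4 without plasmablast m1 and 1 without plasmablast m2. The higher gene, Trp53inp1, a stress-induced partner of p53, had 117 and 119.7 RPKM in plasmablasts, against 24.6, 32.8 and 46.9 RPKM in activated cells (1.79, adjusted p = 0.000635). Phlda3, an inhibitor of AKT, was lower by 1.48.

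Markers of other cells were few in the table, which lists 0 of 10 neutrophil, 1 of 12 T cell, 2 of 11 NK cell, 1 of 10 erythroid, 1 of 10 stromal and endothelial, 1 of 8 platelet, 3 of 14 macrophage and 3 of 10 dendritic cell markers. The other markers are not analysed here. The macrophage markers Apoe, Itgam and Cd68 summed to 9.87 and 8.66 RPKM in plasmablasts, against 20.4, 31.2 and 73.8 RPKM in activated cells. Most of that was Apoe, at 4.54 and 4.49 RPKM in plasmablasts, against 12.9, 24.8 and 69.8 RPKM in activated cells (−2.41, and −1.78 without activated m3, with adjusted p = 0.0784 and 0.0974 without plasmablast m1 and m2). Lck, the T cell kinase, summed to 0.728 and 0.246 RPKM in plasmablasts, against 3.61, 3.53 and 3.41 RPKM in activated cells (−1.62), and the erythroid gene Hbb-bt to 1.06 and 0.329 RPKM in plasmablasts, against 11.7, 8.57 and 3.11 RPKM in activated cells (−2.26). Pecam1 (−1.91) and Itgb3 (−1.37) were lower too. The 3 dendritic markers summed to 160 and 165 RPKM in plasmablasts, against 99.2, 96.4 and 101 RPKM in activated cells, with Bst2 higher by 0.92 and Flt3 lower by 1.35. Most of that sum was Bst2, which is also an interferon-induced gene and whose levels are given below. Both NK cell markers together reached 2.33 and 4.96 RPKM in plasmablasts, against 2.86, 6.17 and 13.0 RPKM in activated cells. The part of such cells in the MHC class II and costimulatory differences was not tested.

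The same comparison in cells with an Irf8 guide rests on other libraries, of which activated m3 lacks the Thy1 of its label (0.093 RPKM). Plasmablast library m3 of that set held about 51000 reads, listed 1984 genes at 0 and had a median correlation of 0.477 with the other cultured libraries, so it was left out. With all 6 libraries 15 genes were called, 0 higher and 15 lower, and 1057 had an unadjusted p under 0.05. Without the shallow library 2751 of 9734 genes were called (28.3%), 1079 higher (11.1%) and 1672 lower (17.2%). Among 9601 genes tested in both sets, 870 of 1145 unguided higher calls (76.0%) and 1336 of 1963 unguided lower calls (68.1%) were called the same way with the guide. Seen from the guide set, the shared calls were 81.7% of 1065 higher and 80.2% of 1666 lower genes. None was called in opposite directions, and 1144 and 1952 of the unguided calls had the same sign. With Irf8-guide activated m3 left out as well, 3321 of 9697 genes were called (34.2%), 1201 higher (12.4%) and 2120 lower (21.9%), and 923 of 1145 unguided higher calls (80.6%) and 1519 of 1956 lower calls (77.7%) were shared. With both activated m3 libraries left out, 1034 of 1429 higher calls (72.4%) and 1800 of 2764 lower calls (65.1%) were shared, which were 87.3% and 85.8% of the calls with the guide, and 1 gene, Dusp5, was called in opposite directions (−0.41 with the guide and 0.54 without).

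In the guide set with its activated m3 kept, 14 of 20 plasma cell surface genes were higher and 13 of 20 B cell factors lower, as were 10 of 15 MHC class II genes. The secretory lists had 19 of 20, 21 of 24, 19 of 24, 16 of 17, 14 of 20 and 23 of 33 members higher, in the order given above, and 0 lower. Without that library the counts were 14 of 20, 14 of 20 and 11 of 15 for these first 3 lists and 19, 21, 19, 16, 15 and 24 for the secretory ones, of which 0 members were lower. Not every list repeated to this degree. With activated m3 kept, 1 G2 and mitosis gene was higher and 3 lower, against 4 and 1 in unguided cells. Replication genes had 1 higher and 5 lower, against 1 and 11. MYC and ribosome genes had 0 and 4, against 4 and 9, and p53 targets 1 and 3, against 1 and 7. Irf8 itself is the edited gene in that set, so its level there is not a stage difference of an intact gene.

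**Figure D5:**
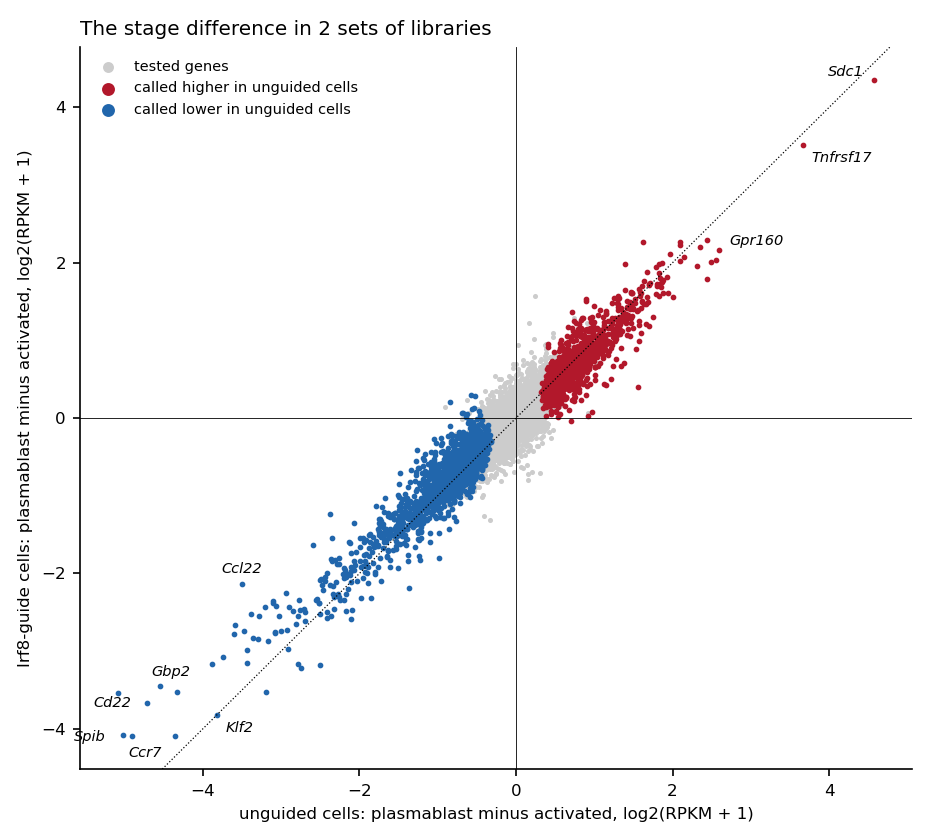
Stage difference of each gene tested in both sets on the log2 scale, in unguided cells on the horizontal axis and in Irf8-guide cells, without the shallow plasmablast library and with activated m3, on the vertical axis, with genes called in unguided cells coloured by direction and a dotted line of equal differences. Of the coloured genes 870 were called higher and 1336 lower in both sets, and 0 were called in opposite directions.

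Whether the stage difference itself depended on the guide was tested with an interaction term in limma over all 11 cultured libraries. It called 0 of 9986 genes, and 10 had an unadjusted p under 0.05. Without the shallow Irf8-guide plasmablast library 0 were called and 113 had an unadjusted p under 0.05. Without that library and both activated m3 libraries 3 genes were called, each at an adjusted p of 0.0382. Spib, one of them, at 1.45 and 1.55 RPKM in Irf8-guide plasmablasts, against 31.5 and 39.3 RPKM in Irf8-guide activated cells, fell less with the guide (interaction 1.45). Rgcc, at 176 and 171 RPKM in Irf8-guide plasmablasts, against 50.9 and 48.2 RPKM in Irf8-guide activated cells, rose less (−1.03). Both kept the direction of the unguided cells, and the calls of their interaction rest on 8 libraries.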

How the data were processed

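The values are RPKM computed by the authors and deposited as 1 table of cultured cells, rounded to 3 decimals. Per the submitters' processing notes the aligner was STAR and the genome mm10; the aligner's version, the annotation and the counter are not given in the sources used here. The table lists 10574 genes; 15 symbols turned into dates were restored from the gene identifier, 1 gene had no symbol, and 10568 identifiers were found in a RefSeq table, which gave coordinates. In the 5 libraries 97.5% to 100% of low values were whole multiples of a step (within 0.2), which gave each library's estimated reads, 4300000 to 26900000; these bound the precision, and no counting interval is given.

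Libraries were grouped by their labels. Genes at 1 RPKM or more in at least 2 of the 5 libraries were transformed to log2(RPKM + 1) and fitted with limma 3.58.1 in R 4.3.3, whose moderated two-sided test used a trend in the spread and 3 residual degrees of freedom. The pseudocount makes differences of low genes smaller than their ratios. P-values were adjusted over every tested gene by the Benjamini-Hochberg method. Values after ± are SD between libraries for levels and SE for differences. The procedure was tested on simulated data. Tables were handled in Python 3.11.15 (pandas 2.3.3, numpy 2.4.6) and drawn with matplotlib 3.10.9.

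The members and the 42 gene lists (34 of programmes, 8 of other cell types) were chosen with earlier results of these data known. Named genes are the 15 called genes with the greatest difference in each direction (mean of 5 RPKM or more in the higher group, no overlap between groups), up to 5 called members of each list per direction, up to 3 others per list by level, and every member of the lists of transcription factors, MHC class II, immunoglobulins and trafficking, with Sdc1, Spib, Ccr7, Irf8 and Thy1; a few of these genes are not reported here. Ms4a1, Cd79b, Eaf2 and Jchain were added after their values were seen, and Dnajc3, Syvn1, Pdia6, Ero1lb, Alg12, Hnrnpa3, Adcy3, Calr, Canx, Gm6566 and Pan2 for their promoter motif. Alternatives changed the pseudocount, the filter, the scaling, the estimate of the spread, the pairing and the libraries used. Replicate numbers are not said to mark an animal or culture. Deviations from the group means correlated between same-numbered libraries at 0.26 (m1) and 0.045 (m2), others between −0.26 and 0.185, and with 2 shared numbers samples were treated as unpaired.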

Additional observations from a re-analysis of the deposited data

How the results depend on the processing

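With activated m3, the library whose Thy1 goes against its label, left out, 4244 genes were called. Over leaving out each of the 5 libraries, called genes ran between 1024 and 4244, higher genes between 457 and 1437 and lower genes between 552 and 2807. The low ends were reached without plasmablast m2 (1024 and 552) and plasmablast m1 (457), since 1 library then stands for the group. A pseudocount of 0.1 (3140), no filter (3142), a filter at 5 RPKM (2528), no trend in the spread (2954) and median-ratio scaling (3338) kept the count within 1.5 times of 3132. A fit with all 11 cultured libraries called 185 genes, 35 higher and 150 lower, while the same fit without the shallow Irf8-guide plasmablast library, chosen after seeing the data, called 3270.

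The replicate number as a block, with 1 residual degree of freedom, called 5347 genes, 1765 higher and 3582 lower. As the numbers are not known to pair the samples, this value is given once. In Irf8-guide cells the count of 15 (0 higher) became 2751 (1079 higher, 1672 lower) without plasmablast m3, 0 without activated m3 (506 at an unadjusted p under 0.05), 3321 (1201 higher, 2120 lower) without both, and 0 with the replicate block (701 at an unadjusted p under 0.05), all in limma. The interaction count of 0 became 3 (2 higher, 1 lower) without 3 libraries and stayed 0 with the replicate block (5 at an unadjusted p under 0.05).

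Of the 326 named genes 222 were called. No sign of a called gene reversed where the gene was tested. The fit with 11 libraries lost 175 calls, and 114 were lost in no other alternative. Genes that left the test in an alternative count among these 114, such as Sdc1, Tnfrsf17 and Cd28 without a plasmablast library. Leaving out plasmablast m1 lost 72 and plasmablast m2 lost 98, activated m1 27, activated m2 42 and activated m3 0. With 2 plasmablast libraries, 1 of them at an estimated 4300000 reads, differences near 1 on the log2 scale often rested on both. Median-ratio scaling lost 12 of the 222 calls, among them Xbp1, Hsp90b1, Rfx5, Tcf3 and Ikzf3. Jchain and Cd79b, named after their values were seen, were not called under that scaling either.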

Other observations

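Interferon-induced genes were lower in part and one abundant member was higher. Of 22 tested genes of 28 listed, 9 were lower and 1 higher, with a median of −0.23 against −0.12 for all genes, and the lower count stayed between 6 and 9 with any library left out, while 4 were higher without activated m3. Ifit1 (−2.44) and Oas1a (−1.96), effectors against viral RNA, and the GTPase genes Gbp7 (−1.91) and Gbp3 (−1.40) were lower beside Gbp2. Bst2, which encodes tetherin, had 153 and 160.0 RPKM in plasmablasts, against 76.1, 79.8 and 90.4 RPKM in activated cells (0.92, adjusted p = 0.00111). Of 15 tested immediate early genes, 4 were lower and 1 higher, near the shares over all genes (20.5% and 11.9%), with a median of −0.11. Nr4a1 (−1.09) and Junb (−0.57) were lower and Zfp36 (0.90) was higher. The lower count was 2 without plasmablast m1 and 1 without plasmablast m2, and the higher count 4 without activated m3.

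Lysosome and autophagy genes leaned to the higher side, while their transcription factor did not. Among all tested genes, 11.9% were higher and 20.5% lower. Of 25 genes 11 were higher and 2 lower, with a median of 0.27, and 6, 2 and 1 were higher without activated m2, plasmablast m1 and plasmablast m2. Ctsd (0.94), Ctsb (0.87) and Lgmn (0.71), all lysosomal proteases, were higher, and Map1lc3a, an autophagosome protein, had 15.4 RPKM in both plasmablast libraries, against 6.71, 7.19 and 8.85 RPKM in activated cells (0.94). Tfeb, the factor that induces lysosomal genes, had 5.50 and 4.17 RPKM in plasmablasts, against 16.2, 14.9 and 10.99 RPKM in activated cells (−1.36), and the protease gene Ctsh was lower by 0.92.

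Outside amino acid supply, few genes of the metabolic lists were called over 5 libraries. Over all tested genes, 11.9% were higher and 20.5% lower. Of 22 tested genes of amino acid supply, 6 were higher and 3 lower (median 0.02), with higher counts of 3, 2, 3 and 1 without activated m1, activated m2, plasmablast m1 and plasmablast m2. Pycr1, the last enzyme of proline synthesis, had 46.5 and 43.1 RPKM in plasmablasts, against 9.45, 10.4 and 15.7 RPKM in activated cells (1.86, adjusted p = 0.000259), and Slc3a2, a chain of amino acid transporters, was higher by 0.99. Of 23 cholesterol genes, 1 was higher and 5 lower (median −0.26), and the lower count was 14 without activated m3 (median −0.41, with 29.1% of all genes lower), 2 without activated m1 and 0 without activated m2, plasmablast m1 or plasmablast m2. Insig1, a brake on sterol synthesis, had 143 and 134 RPKM in plasmablasts, against 75.8, 82.6 and 74.7 RPKM in activated cells (0.83), while Hmgcs1 (−0.63) and Mvd (−0.62), enzymes of that synthesis, were lower. Of 19 glycolysis genes 1 was higher and 3 lower (median −0.08), and 6 were lower without activated m3 and 1 or 0 without any other library. Of 23 oxidative phosphorylation genes 2 were higher and 1 lower (median −0.03), and 4 were higher and 2 lower without activated m3.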
